A study of Caenorhabditis elegans with 12 samples.

Results

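Acid ceramidases, glucocerebrosidases and acid sphingomyelinases break down sphingolipids, in human cells mainly inside the lysosome. The 9 Caenorhabditis elegans genes named for these enzymes are asah-1 and asah-2 (ceramidases), gba-1, gba-2, gba-3 and gba-4 (glucocerebrosidases), and asm-1, asm-2 and asm-3 (sphingomyelinases). They were chosen as families of enzymes and matched by gene symbol, with earlier results of these data known, and all 9 were found among the 46748 genes of the count table. Each was also among the 14567 genes that passed the filter on low counts. The counts measure transcripts and say nothing of where the protein is or how active it is.

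RNA was sequenced from whole hermaphrodites of the wild-type strain N2 with the TruSeq RNA v2 kit. The worms carried no listed allele or transgene, and the labels give the perturbation as L4440, the empty vector of feeding RNAi, or as bcat-1, with an age of 1 or 2 days. This made 4 groups of 3 libraries: L4440 at day 1, bcat-1 RNAi at day 1, L4440 at day 2 and bcat-1 RNAi at day 2. The labels name no culture, batch or pool, so the p-values measure only the spread between these libraries, which may be technical.

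Sphingomyelinases remove the head group of sphingomyelin and leave ceramide, glucocerebrosidases remove glucose from glucosylceramide and leave ceramide, and ceramidases split ceramide into a sphingoid base and a fatty acid. In humans, loss of acid sphingomyelinase causes Niemann-Pick disease, loss of glucocerebrosidase Gaucher disease, and loss of acid ceramidase Farber disease. In C. elegans the sphingoid base has a branched end that is built from a product of leucine breakdown, and BCAT-1 is the aminotransferase that starts leucine breakdown.

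Libraries held 29291731 to 43855795 counts. The bcat-1 transcript stood at 18.01 to 27.1 CPM (counts scaled by library size) on bcat-1 RNAi and 156 to 179 CPM on L4440 at day 1. At day 2 it stood at 116 to 157 CPM on L4440, and was 13.9, 17.3 and 329 CPM in the libraries labelled bcat-1. The labels give no replicate numbers, and these libraries are numbered replicates 1, 2 and 3 here by their order in the series. Replicate 3 of the libraries labelled bcat-1 day 2 therefore goes against its label. Reads from the RNA fed to the worms may be counted for bcat-1 as well. That library had 41.5% of its counts in 20 rRNA genes, L4440 day 2 replicate 3 had 6.74%, and the other 10 had 0.0675% to 2.49%. Each called result below was therefore also fitted without these libraries. The values of these fits are given for the calls of asah-1, gba-4 and asm-1 and for asm-3 on L4440. For pathway and marker genes they are not given.

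Per kilobase of exon, the 9 transcripts covered a wide range of levels. On L4440 at day 1 asah-2 stood at 19.4 ± 1.497 CPM per kilobase and gba-4 at 18.2 ± 1.00 (mean ± SD, n = 3), and the libraries of these neighbours in the order overlapped. asah-1 followed at 12.5 ± 3.11, below every library of gba-4. Next came gba-1 at 5.53 ± 0.74, asm-1 at 4.77 ± 0.59 and gba-3 at 4.21 ± 0.34, each overlapping its neighbour. The levels of asm-2 (1.21 ± 0.09), gba-2 (0.67 ± 0.12) and asm-3 (0.11 ± 0.05) were the lowest and did not overlap each other.

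The order changed at the top and in the middle of the range in the other groups. gba-4 was highest in the remaining 3 groups, at 25.2 ± 3.08 CPM per kilobase on bcat-1 RNAi at day 1, 24.3 ± 0.14 on L4440 at day 2 and 33.4 ± 2.17 on bcat-1 RNAi at day 2, with its libraries above those of the next gene each time. asah-1 had the lower mean of both ceramidases in 3 groups and the higher in the bcat-1 day 2 group, at 27.5 ± 3.26 against 24.2 ± 2.41 for asah-2, where their libraries overlapped. asm-1 lay above gba-3 in mean level on both foods at day 1 and below it on both at day 2. asm-3 was lowest in every group, and its libraries overlapped those of gba-2 in the bcat-1 day 2 group.

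**Figure D1:**
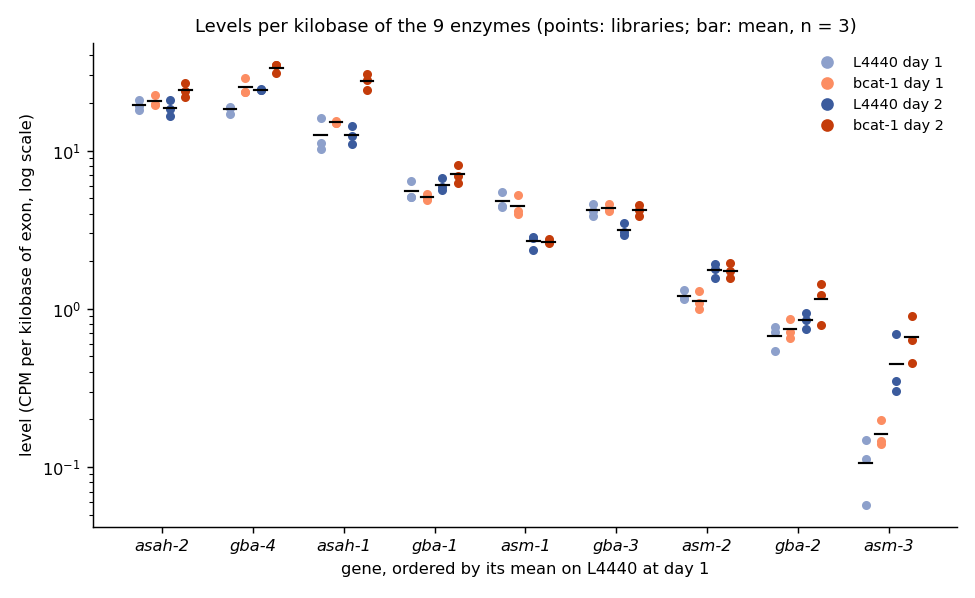
Level of each of the 9 transcripts in CPM per kilobase of exon (vertical axis, log scale) by gene, ordered by the mean on L4440 at day 1; points are libraries, coloured by group, and bars are means of 3. gba-4, asah-1 and asah-2 lie above 10 in every library, and asm-3 lies below 1 in every library.

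The first comparison asks which of the 9 levels changed with bcat-1 RNAi in the older worms. asah-1 rose on bcat-1 RNAi at day 2, and it was the 1 of 9 members that passed the test, where 0.419% of all genes did (0.206% in this direction). The other 8 did not pass. Of the 9 values 7 were positive, with a median log2 fold change of 0.40, while the median of all 14567 genes was -0.02. The groups did not overlap and lay higher on bcat-1 RNAi for 4 of 9 members (asah-1, asah-2, gba-3 and gba-4), where 6.52% of all genes did so.

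asah-1 (WBGene00010769, chromosome I, 12505114 to 12507569 on the plus strand in WBcel235) encodes an acid ceramidase. On L4440 at day 2 it stood at 15.5, 13.8 and 17.9 CPM in replicates 1, 2 and 3, and on bcat-1 RNAi at 30.2, 38.4 and 34.7 CPM. Every bcat-1 library lay above every L4440 library, and replicate 3 of the libraries labelled bcat-1 day 2 lay between the other pair of its group. This was a 2.19-fold rise (log2 1.13, SE 0.17, 95% confidence interval 0.77 to 1.49, edgeR quasi-likelihood test with Benjamini-Hochberg adjustment over all genes, adjusted p = 0.0113). In RNA from whole worms, a change in the number of cells of a type and a change in RNA per cell cannot be told apart.

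The asah-1 call held without replicate 3 of the libraries labelled bcat-1 day 2 (log2 1.11, edgeR adjusted p = 0.0252). It also held without both libraries of over 5% rRNA (1.22, adjusted p = 0.0485). It was lost without bcat-1 day 2 replicate 2 (1.04, adjusted p = 0.0711), without L4440 day 2 replicate 2 (1.05, 0.0794), with unscaled library sizes (1.01, 0.228) and in a fit of these 2 groups alone (1.15, 0.115). In these 4 fits the log2 value lay between 1.01 and 1.15. No gene overlaps asah-1 on either strand.

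asah-2 (WBGene00009192, chromosome II, 10139590 to 10141406), the second ceramidase gene, stood at 26.7, 21.2 and 23.5 CPM on L4440 at day 2 and at 34.1, 30.5 and 27.9 CPM under bcat-1 RNAi. All 3 bcat-1 libraries lay above the L4440 libraries, but the difference did not pass the test (log2 0.37, SE 0.12, interval 0.12 to 0.63, edgeR adjusted p = 0.326). Its 3′ end shares 32 exonic bases with F27E5.3 on the other strand.

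The shares given next use the same counts as the fold changes above and are not separate from them. asah-1 made up more of the ceramidase counts on bcat-1 RNAi at day 2. Its share of the counts of asah-1 and asah-2 together was 36.6%, 39.5% and 43.2% on L4440 and 47.0%, 55.7% and 55.4% on bcat-1 RNAi at day 2. These groups did not overlap. At day 1 the shares were 35.8%, 34.4% and 45.0% on L4440 and 43.1%, 40.1% and 42.7% on bcat-1 RNAi, which overlapped. The summed ceramidase level was 39.5 ± 3.92 CPM on L4440 and 65.3 ± 3.25 CPM under bcat-1 RNAi at day 2.

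**Figure D2:**
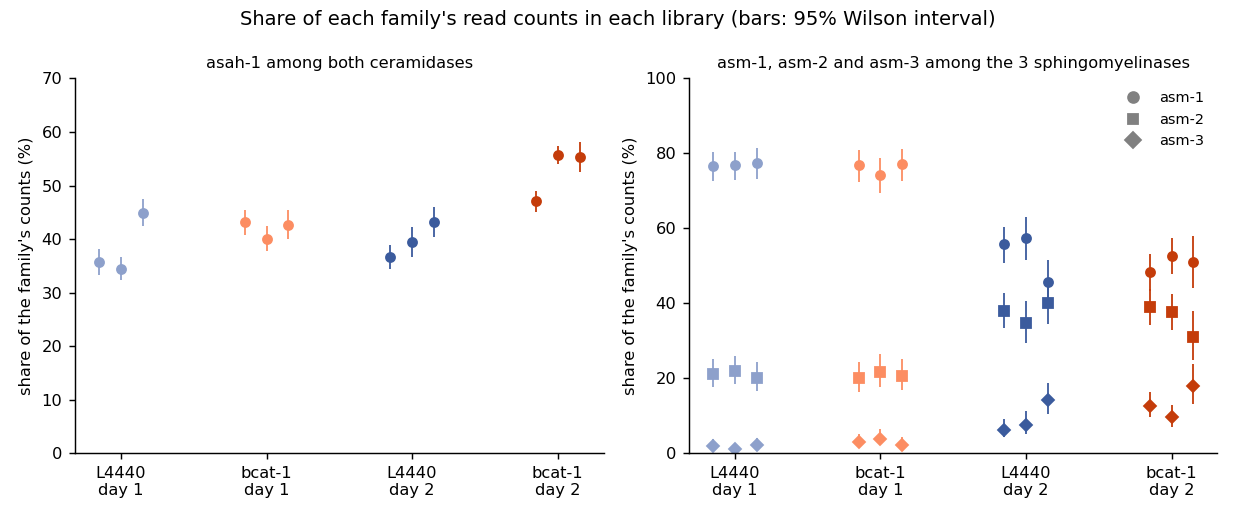
Share of a family's read counts (%, vertical axis) in each of the 12 libraries by group, for asah-1 among both ceramidases (left) and for asm-1, asm-2 and asm-3 among the 3 sphingomyelinases (right); bars are 95% Wilson intervals, which cover counting error only. The bcat-1 day 2 libraries hold the 3 highest asah-1 shares, 47.0% to 55.7%, and asm-1 stands at 74.3% to 77.6% at day 1 and 45.6% to 57.5% at day 2.

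Among the glucocerebrosidases, gba-4 was highest in each group and was higher on bcat-1 RNAi by a like amount at both ages. gba-4 (WBGene00021160, chromosome IV, 5344592 to 5350897, minus strand) stood at 40.0, 40.3 and 40.5 CPM on L4440 at day 2 and at 57.9, 57.2 and 51.3 CPM under bcat-1 RNAi. The groups lay apart, yet the gene did not pass edgeR's test at day 2 (log2 0.46, SE 0.09, interval 0.26 to 0.67, adjusted p = 0.0839). It passed with DESeq2 (0.45, adjusted p = 0.00383) and with upper-quartile scaling (0.50, adjusted p = 0.0431).

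gba-3 (WBGene00008706, chromosome IV, 17473334 to 17479397) stood at 6.79, 5.75 and 6.00 CPM on L4440 at day 2 and at 8.20, 7.53 and 8.87 CPM under bcat-1 RNAi. These groups did not overlap either, and the difference did not pass (log2 0.40, SE 0.12, interval 0.13 to 0.68, edgeR adjusted p = 0.326). gba-1 lay between 13.5 and 16.2 CPM on L4440 and between 14.99 and 19.6 CPM under bcat-1 RNAi. gba-2 lay between 1.18 and 1.49 CPM and between 1.25 and 2.29 CPM. In both the groups overlapped, with log2 values of 0.23 (adjusted p = 0.763) and 0.43 (adjusted p = 0.763). The genes gba-1 (WBGene00016335, chromosome II, 2176741 to 2182510, plus strand) and gba-2 (WBGene00016340, 2182494 to 2186434, minus strand) face each other and share 17 bases at their ends. With no stated strand setting, reads there cannot be assigned to either.

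The sphingomyelinases did not pass the test between foods at day 2. asm-1 was at 4.24 to 5.08 CPM on L4440 and 4.63 to 4.95 CPM under bcat-1 RNAi (log2 -0.01, interval -0.34 to 0.32, edgeR adjusted p = 0.995). asm-2 stood at 3.03 to 3.73 and 3.01 to 3.74 CPM (-0.01, interval -0.37 to 0.35, adjusted p = 0.991). The libraries of both foods overlapped in each gene, and neither interval reached beyond 0.37 on the log2 scale. asm-3, at 0.577 to 1.32 and 0.864 to 1.73 CPM, gave an interval too wide for such a statement (log2 0.56, interval -0.28 to 1.402, adjusted p = 0.772).

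**Figure D3:**
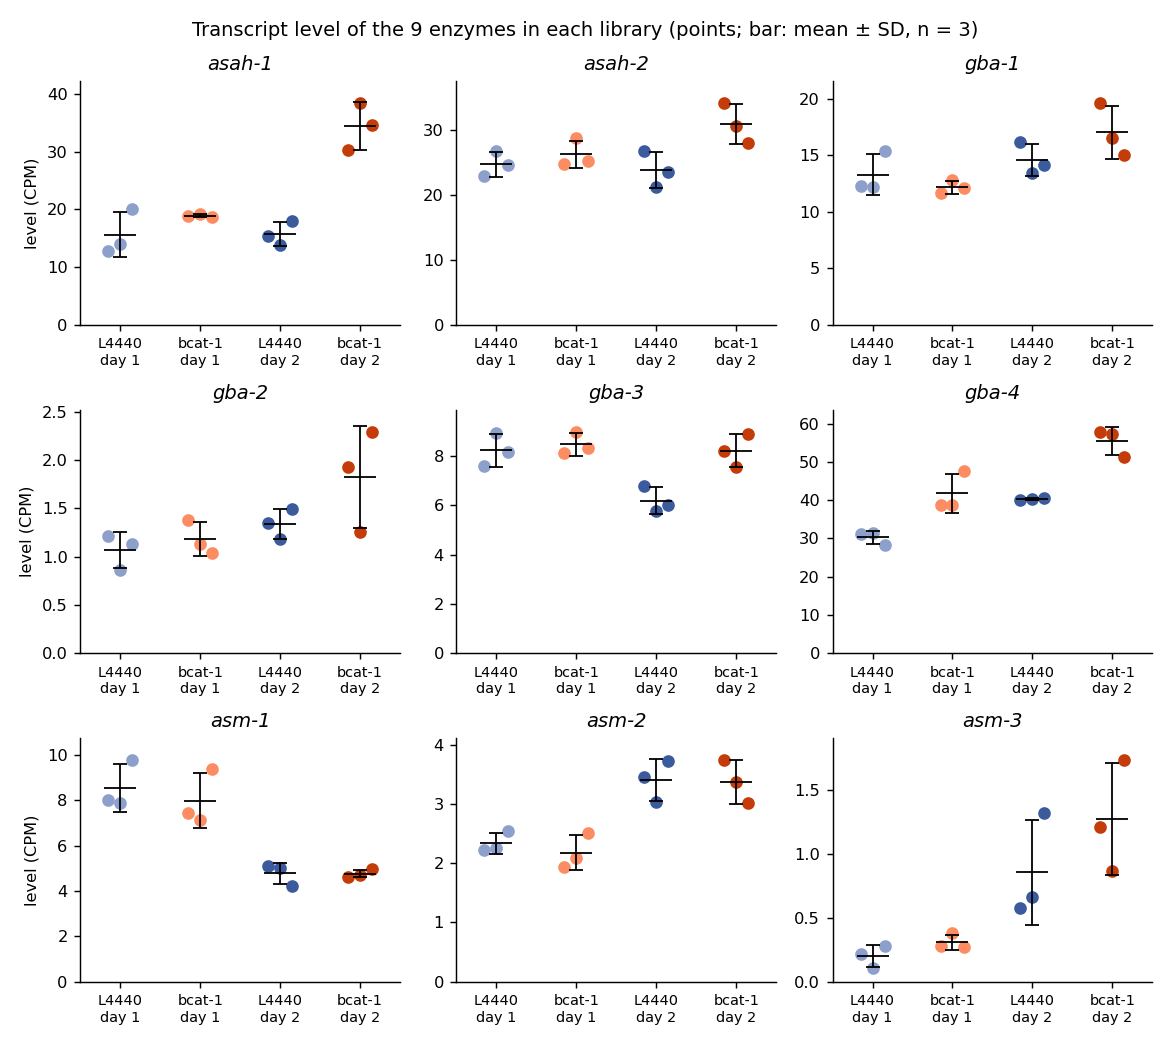
Level in CPM (vertical axis, from 0) of each of the 9 transcripts by group; points are libraries in the order of replicates 1, 2 and 3, and bars are mean ± SD (n = 3). The bcat-1 day 2 libraries of asah-1 lie at 30.2 to 38.4 CPM, above every other library of the gene, and asm-1 lies at 4.24 to 5.08 CPM at day 2, below its day 1 libraries.

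Markers of tissues were set beside the day 2 comparison, because a whole worm mixes many cell types. No tested marker of any list passed the test between foods at day 2, and of 5 sperm markers only 1 was tested. Intestine markers were positive in 4 of 6, with summed levels of 306 to 349 CPM on L4440 and 278 to 314 CPM under bcat-1 RNAi. Germline markers were negative in 6 of 7 (summed 2426 to 3048 CPM on L4440, 2044 to 2723 on bcat-1 RNAi). Oocyte and eggshell markers were negative in 7 of 7 (summed 6937 to 8440 and 6091 to 7632 CPM). The part of these shifts in the asah-1 result was not tested. Markers of coelomocytes, germline, muscle, neurons, epidermis and intestine included none at 0 in every library, and of 5 sperm markers 1 was at 0 in every library.

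At day 1 no member passed the test between foods (0 of 9), and 0% of all genes did. bcat-1, the target of the RNAi, did not pass either (log2 -2.98, SE 0.93, edgeR adjusted p = 0.9999), although its groups did not overlap. At day 2 its value was -0.21 (adjusted p = 0.952), with the library of 329 CPM included. The 4 groups share 1 estimate of the spread per gene, so that library also enters the day 1 SE of bcat-1. The failure of bcat-1 at day 1 is thus no measure of how well changes in the 9 members could be detected. A lack of calls at day 1 does not by itself show that levels were unchanged. At an unadjusted p under 0.05, edgeR gave 297 genes (2.04% of all), among them 1 member, gba-4. DESeq2 called 16 genes, of which 1 was a member (gba-4, adjusted p = 0.0208), limma-voom called 0, and edgeR without the filter called 7 genes and 0 members. Of the 9 log2 values 6 were positive, with a median of 0.08 against 0.01 over all genes.

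gba-4 stood at 31.0, 31.4 and 28.4 CPM on L4440 and at 38.8, 38.9 and 47.7 CPM under bcat-1 RNAi at day 1. Its groups did not overlap, as in 10.5% of all genes, and it was the 1 member of which this was true. Its log2 fold change was 0.46 (SE 0.09, interval 0.26 to 0.67, edgeR adjusted p = 0.584). asah-1 stood at 12.7, 14.0 and 20.0 CPM on L4440 and at 18.8, 19.2 and 18.7 CPM under bcat-1 RNAi. L4440 replicate 3 lay above all 3 bcat-1 libraries, and the value of 0.28 (SE 0.16, interval -0.08 to 0.64) did not pass (adjusted p = 1).

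Averaged over both ages, which uses all 12 libraries, 2 of 9 members passed the test and both were higher on bcat-1 RNAi, where 0.343% of all genes passed (0.165% in this direction). This average shares its libraries with the comparisons at each age and is not separate from them. gba-4 rose 1.38-fold (log2 0.46, SE 0.07, interval 0.32 to 0.61, edgeR adjusted p = 0.00967). It passed with each of the 12 libraries left out in turn (log2 0.39 to 0.49, adjusted p 0.0104 to 0.038) and was lost with unscaled library sizes (0.40, adjusted p = 0.999). asah-1 rose 1.63-fold (log2 0.70, SE 0.12, adjusted p = 0.0217).

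The averaged asah-1 call held in 4 of the 12 fits that leave out a library. It was lost without any 1 of the 3 bcat-1 day 1 libraries, bcat-1 day 2 replicate 2, L4440 day 1 replicate 1 or 2, or L4440 day 2 replicate 1 or 2 (log2 0.64 to 0.71, edgeR adjusted p 0.0571 to 0.0865). Without both libraries of over 5% rRNA asah-1 (0.74, adjusted p = 0.0488) and gba-4 (0.48, adjusted p = 0.0314) passed. The values of asah-2 (0.23, adjusted p = 0.555) and gba-3 (0.22, adjusted p = 0.685) did not pass. For asm-1 (-0.05, interval -0.28 to 0.18) and asm-2 (-0.06, interval -0.31 to 0.20) the intervals spanned 0.

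The test of whether the RNAi effect differed between ages called 0 of 9 members and 0% of all genes. An unadjusted p under 0.05 was reached by 385 genes (2.64%), with 1 member among them, asah-1, while DESeq2 called 13 genes and limma-voom 0, and neither called a member. For asah-1 the day 2 effect exceeded the day 1 effect by 0.85 on the log2 scale (SE 0.23, interval 0.35 to 1.36), which did not pass (edgeR unadjusted p = 0.00327, adjusted p = 1). For gba-4 the difference was 0.00 (SE 0.14), with an interval of -0.29 to 0.30. The effect on asah-1 is therefore not shown to differ between ages in the fit over all genes.

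**Figure D4:**
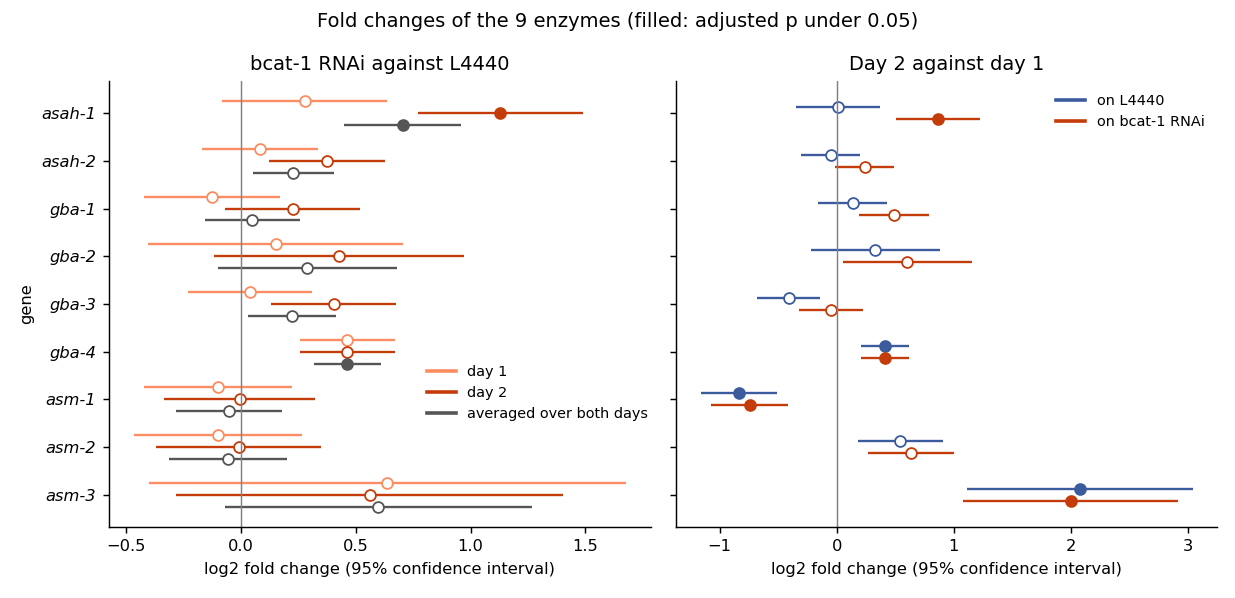
Log2 fold changes (horizontal axis) with 95% confidence intervals for the 9 transcripts, bcat-1 RNAi against L4440 (left) and day 2 against day 1 (right); filled points passed the edgeR test at an adjusted p under 0.05. asah-1 at day 2 (1.13) and the age changes of asm-1 (-0.84 and -0.75) and asm-3 (2.08 and 2.00) are the filled points farthest from 0 apart from asah-1 on bcat-1 RNAi (0.87).

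The comparison of ages on L4440 asks how the transcripts differ between worms of 1 and 2 days without RNAi of a worm gene. It called 3 of 9 members, gba-4 and asm-3 higher and asm-1 lower at day 2, where 2.3% of all genes were called. On bcat-1 RNAi the same comparison called 4 of 9 members, asah-1, gba-4 and asm-3 higher and asm-1 lower, where 4.07% of all genes were called. Both counts include asm-3. By unscaled library size it reached the filter's level in 1 library of L4440 day 1 and 2 of bcat-1 day 1. It reached that level in all day 2 libraries, so most libraries that reached it were of the age where the gene is high. The age comparisons reuse the libraries of the comparisons between foods. Groups did not overlap in 5 of 9 members on L4440 (24.7% of all genes) and in 6 of 9 on bcat-1 RNAi (21.1% of all genes).

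asm-1 (WBGene00000211, chromosome II, 6910072 to 6912659), the most abundant sphingomyelinase transcript, stood at 8.01, 7.87 and 9.76 CPM on L4440 at day 1 and at 5.08, 4.99 and 4.24 CPM at day 2. It fell 1.79-fold there (log2 -0.84, SE 0.15, interval -1.16 to -0.51, edgeR adjusted p = 0.0163). On bcat-1 RNAi it stood at 7.42, 7.15 and 9.38 CPM at day 1 and at 4.63, 4.71 and 4.95 CPM at day 2, a 1.68-fold fall (log2 -0.75, SE 0.15, adjusted p = 0.0172). On both foods every day 2 library lay below every day 1 library.

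The call on L4440 was lost without L4440 day 1 replicate 2 (adjusted p = 0.0554) or 3 (0.0651) or L4440 day 2 replicate 3 (0.0758). On bcat-1 RNAi it was lost without bcat-1 day 1 replicate 3 (edgeR adjusted p = 0.0887), or bcat-1 day 2 replicate 1 (0.0505) or 2 (0.0530). Without both libraries of over 5% rRNA asm-1 passed on L4440 (-0.79, adjusted p = 0.0462) and on bcat-1 RNAi (-0.79, adjusted p = 0.0287). The last 120 exonic bases of asm-1 overlap cyn-10 on the other strand, a cyclophilin gene with 1255 to 2294 counts a library. cyn-10 had age values of 0.04 on L4440 (adjusted p = 0.960) and 0.18 on bcat-1 RNAi (adjusted p = 0.591).

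asm-3 (WBGene00000213, chromosome IV, 520214 to 523809) was measured by few reads. It had 9, 5 and 9 counts on L4440 at day 1 and 26, 22 and 39 at day 2, which is 0.214, 0.111 and 0.283 CPM and then 0.577, 0.666 and 1.32 CPM. On bcat-1 RNAi it had 11, 13 and 8 counts at day 1 and 49, 38 and 34 at day 2, or 0.280, 0.378 and 0.268 CPM and then 1.21, 0.864 and 1.73 CPM. All day 2 libraries lay above all day 1 libraries on each food.

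asm-3 rose 4.22-fold with age on L4440 (log2 2.08, SE 0.44, interval 1.11 to 3.04, edgeR adjusted p = 0.0341) and 4.00-fold on bcat-1 RNAi (2.00, SE 0.42, adjusted p = 0.0216). The filter's level is 0.285 CPM by unscaled library size, unlike the TMM-scaled CPM printed above. On that unscaled measure 1 library of L4440 day 1, 2 of bcat-1 day 1 and all 6 of day 2 reached it. Most libraries that reached it were therefore of the age where the gene is high. On L4440 the call was lost without any 1 of the 3 bcat-1 day 1 or the 3 L4440 day 1 libraries or L4440 day 2 replicate 3 (log2 1.63 to 2.36, adjusted p 0.0531 to 0.157). It was lost there also without both libraries of over 5% rRNA (1.61, adjusted p = 0.0847). On bcat-1 RNAi it was lost without any 1 of the 3 bcat-1 day 1 libraries or bcat-1 day 2 replicate 3 (1.71 to 2.17, adjusted p 0.0515 to 0.0985).

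asm-2 (WBGene00000212, chromosome X, 11321079 to 11324251) stood at 2.22, 2.25 and 2.54 CPM on L4440 at day 1 and at 3.46, 3.03 and 3.73 CPM at day 2. The groups did not overlap on either food, and the values of 0.54 (SE 0.17, edgeR adjusted p = 0.103) on L4440 and 0.64 (SE 0.17, adjusted p = 0.0582) on bcat-1 RNAi did not pass. DESeq2 (adjusted p = 0.0277) and limma-voom (0.0437) called asm-2 on bcat-1 RNAi.

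The make-up of the sphingomyelinase counts, which gave the age values above, differed between ages on both foods. asm-1 held 76.7% to 77.6% of them on L4440 and 74.3% to 77.1% on bcat-1 RNAi at day 1, and 45.6% to 57.5% and 48.3% to 52.7% at day 2. asm-2 held 20.1% to 22.03% at day 1 and 31.1% to 40.1% at day 2, and asm-3 held 1.08% to 3.93% and then 6.33% to 17.9%. No day 1 library overlapped a day 2 library in any of these shares. The summed level of the family was 11.1 ± 1.31 CPM at day 1 and 9.03 ± 0.31 CPM at day 2 on L4440, and 10.5 ± 1.46 and 9.40 ± 0.41 CPM under bcat-1 RNAi.

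gba-4 rose with age by the same factor on each food, 1.33-fold on L4440 (log2 0.41, SE 0.09, edgeR adjusted p = 0.0477) and 1.33-fold on bcat-1 RNAi (0.41, SE 0.09, adjusted p = 0.0324). Its day 2 libraries lay above the day 1 libraries of the same food. Its call on L4440 was lost without bcat-1 day 1 replicate 1 or 2, bcat-1 day 2 replicate 2, or any 1 of the 6 L4440 libraries (log2 0.36 to 0.44, adjusted p 0.0516 to 0.143). On bcat-1 RNAi it was lost without bcat-1 day 1 replicate 1 or 2, bcat-1 day 2 replicate 1 or 2, L4440 day 1 replicate 1 or 2, or L4440 day 2 replicate 3 (0.36 to 0.41, adjusted p 0.0564 to 0.172). Without both libraries of over 5% rRNA it did not pass on L4440 (0.38, adjusted p = 0.121) or on bcat-1 RNAi (0.44, adjusted p = 0.0501). Per kilobase, gba-4 held 60.3% to 65.7% of the glucocerebrosidase level on L4440 at day 1, 68.5% to 72.3% on L4440 at day 2, and 68.8% to 74.9% on bcat-1 RNAi at both ages.

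asah-1 lay at 18.7 to 19.2 CPM at day 1 and at 30.2 to 38.4 CPM at day 2 under bcat-1 RNAi, a 1.82-fold rise with age (log2 0.87, SE 0.16, interval 0.51 to 1.23, edgeR adjusted p = 0.0122). The call was lost without bcat-1 day 1 replicate 2 (adjusted p = 0.0615) or 3 (0.0580), and held without both libraries of over 5% rRNA (0.84, adjusted p = 0.0287). On L4440 its day 1 and day 2 libraries overlapped, with a value of 0.01 (interval -0.34 to 0.37, adjusted p = 0.988). The difference between these age effects is the same quantity as the difference of the RNAi effects above and did not pass.

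The other members gave these age values. gba-3 had -0.41 on L4440 (SE 0.12, edgeR adjusted p = 0.101), with day 2 libraries of 5.75 to 6.79 CPM below those of day 1 at 7.60 to 8.93 CPM, and -0.05 on bcat-1 RNAi, where the ages overlapped. DESeq2 called gba-3 on L4440 (adjusted p = 0.0316). An intron of gba-3 holds F11E6.9 on the other strand, a gene of 1 to 53 counts whose exons do not overlap those of gba-3. gba-1 had 0.14 on L4440 and 0.49 on bcat-1 RNAi (SE 0.14, adjusted p = 0.0721). Leaving out replicate 3 of the libraries labelled bcat-1 day 2 brought gba-1 past the edgeR test (0.55, adjusted p = 0.0361). DESeq2 called gba-1 over all libraries (0.48, adjusted p = 0.0144). gba-2 had 0.33 and 0.60 (adjusted p = 0.594 and 0.222), and asah-2 had -0.05 and 0.24 (adjusted p = 0.919 and 0.298).

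Markers of several tissues also differed between ages. The summed epidermis markers stood at 202 to 279 CPM on L4440 and 232 to 316 CPM under bcat-1 RNAi at day 1, and at 107 to 134 and 101 to 152 CPM at day 2. The 4 genes did not move together: the adult collagen gene col-19 fell by 1.13 on L4440 and by 1.29 on bcat-1 RNAi on the log2 scale (edgeR adjusted p = 0.00646 and 0.00156). The cuticle collagen genes dpy-7 (2.69 and 2.31) and rol-6 (2.85 and 1.72) had positive values that did not pass, and the median of the list was 0.93 on L4440 and 0.74 on bcat-1 RNAi. The summed muscle markers lay at 1099 to 1248 CPM at day 1 and 797 to 1117 CPM at day 2 on L4440, and at 1067 to 1377 and 737 to 978 CPM under bcat-1 RNAi, with 3 of 4 genes negative and 1 of 4 lower past the test on each food. Of 6 intestine markers 1 was lower past the test on each food. This was pept-1 on L4440 (log2 -0.59, edgeR adjusted p = 0.0394) and act-5 on bcat-1 RNAi (-0.55, adjusted p = 0.0129). Over all genes 1.29% were lower past the test on L4440 and 2.06% on bcat-1 RNAi. With a library left out in turn, pept-1 held in 5 of 12 fits and act-5 in 10. The called muscle marker, unc-27 on both foods, held in 5 of 12 fits on L4440 and 10 on bcat-1 RNAi. Moulting genes were positive in 4 of 5 on each food, with 0 past the test. The part of these shifts in the age results of asm-1, asm-3 and gba-4 was not tested.

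Summed over the 9 genes, the level was 104 ± 5.97 CPM on L4440 and 119.1 ± 6.01 CPM under bcat-1 RNAi at day 1, and 111 ± 5.87 and 157 ± 6.47 CPM at day 2 (mean ± SD, n = 3). The bcat-1 day 2 libraries, at 150 to 162 CPM, lay above the other 9. The glucocerebrosidases summed to 62.4 ± 1.87 CPM on L4440 and 82.6 ± 5.07 CPM under bcat-1 RNAi at day 2, without overlap, as did the ceramidases. No test is given for these sums.

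Other genes of sphingolipid metabolism and of the lysosome were set beside the 9 enzymes. Of 60 such genes 1 rose on bcat-1 RNAi at day 2, where 0.206% of all genes rose and 0.419% were called in either direction. This was aagr-1, named for an acid alpha-glucosidase, the enzyme that breaks down glycogen in the human lysosome. It went from 45.1 ± 4.00 CPM to 66.5 ± 5.02 CPM (log2 0.56, SE 0.10, edgeR adjusted p = 0.0313), and no listed gene fell. Its call was lost without bcat-1 day 1 replicate 2 or 3, bcat-1 day 2 replicate 2, L4440 day 1 replicate 2 or any 1 of the 3 L4440 day 2 libraries (log2 0.50 to 0.62, adjusted p 0.0685 to 0.168). Over all 22 alternatives the call was lost in 9. Averaged over both ages, which reuses the day 2 libraries, aagr-1 was the 1 listed gene called (0.43, edgeR adjusted p = 0.0171). Over all genes 0.343% were called there, and 0.165% were higher. The averaged call of aagr-1 was lost without bcat-1 day 1 replicate 2 or 3, bcat-1 day 2 replicate 2, L4440 day 1 replicate 1 or 2, or L4440 day 2 replicate 2 (adjusted p 0.0536 to 0.113). Over all 21 alternatives for the average it was lost in 7.

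Genes that make ceramide did not pass at day 2 (0 of 8, median log2 0.06). The smallest adjusted p among them was that of sptl-2, a subunit of serine palmitoyltransferase (0.44, edgeR adjusted p = 0.269). Of 11 genes for complex sphingolipids 0 passed (median -0.03), with bre-3 at -0.29 (adjusted p = 0.766). Of 4 genes for sphingosine phosphate turnover 0 passed (median -0.07), with the lyase gene spl-2 at 0.26 (adjusted p = 0.743). The 3 genes for branched sphingoid base precursors were all positive and 0 passed (median 0.23), with the elongase gene elo-5 at 0.46 (adjusted p = 0.446).

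The 3 lysosomal lists other than the 9 enzymes had medians between -0.08 and 0.08 at day 2. Of 10 glycosidases and sulfatases aagr-1 passed, and the median was 0.08. Of 15 genes for the lysosome membrane, transport and regulation 0 passed (median 0.05). The smallest adjusted p there was that of cln-3.3, a homolog of the human Batten disease gene (0.94, edgeR adjusted p = 0.152). Of 9 lysosomal proteases 0 passed (median -0.08), with the cathepsin B family gene cpr-6 at 0.26 (adjusted p = 0.634). At day 1 and in the difference between ages of the RNAi effect 0 of these 60 genes passed.

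**Figure D5:**
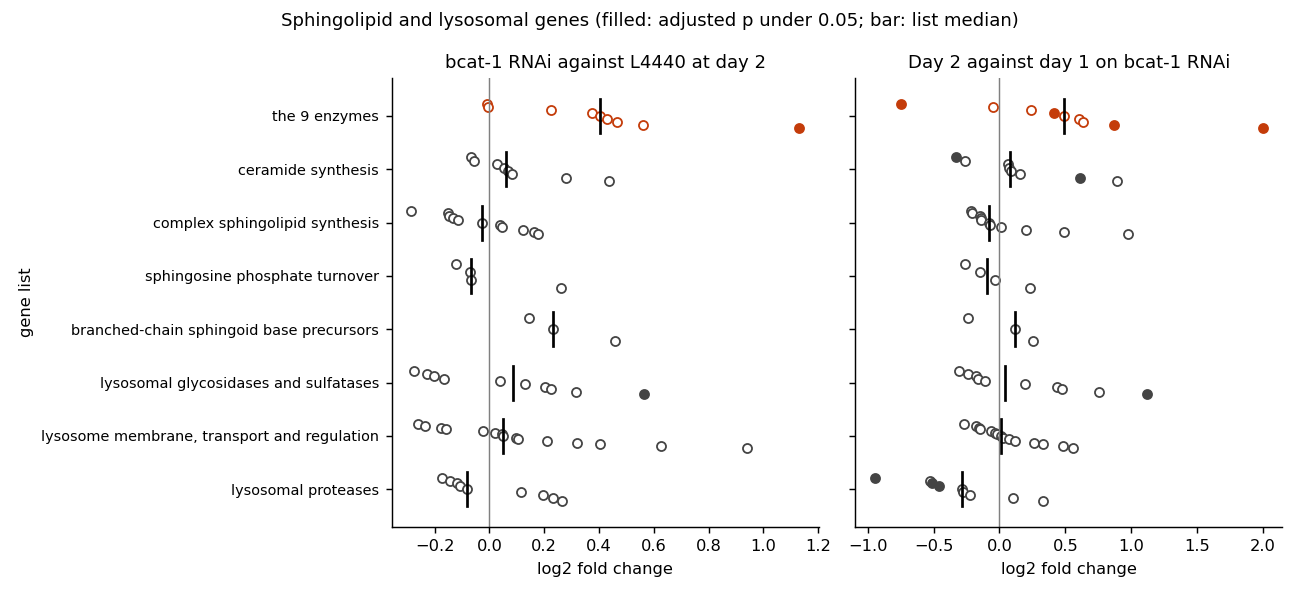
Log2 fold changes (horizontal axis) of the 9 enzymes and of 7 lists of sphingolipid and lysosomal genes, for bcat-1 RNAi against L4440 at day 2 (left) and for day 2 against day 1 on bcat-1 RNAi (right); points are genes, filled where the adjusted p is under 0.05, and bars are medians. At day 2 asah-1 and aagr-1 are the filled points, and the medians of the 9 enzymes are 0.40 (left) and 0.49 (right).

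With age, aagr-1 rose on both foods, by 0.86 on the log2 scale on L4440 (edgeR adjusted p = 0.00137) and by 1.12 on bcat-1 RNAi (adjusted p = 9.34e-05). The aspartyl protease gene asp-1 fell by 0.72 on L4440 (adjusted p = 0.00752) and by 0.95 on bcat-1 RNAi (adjusted p = 8.04e-04). Leaving out any 1 of the 12 libraries ended none of these 4 calls. Over all 22 alternatives the L4440 calls of aagr-1 and asp-1 were each lost in 1. On bcat-1 RNAi asp-2 (-0.51, adjusted p = 0.0110) and the cathepsin L gene cpl-1 (-0.46, adjusted p = 0.0135) fell too, so that 3 of 9 proteases fell and 0 rose, where 2.06% of all genes fell and 4.07% were called in either direction. The call of asp-2 was lost without bcat-1 day 1 replicate 2 (adjusted p = 0.0659), and that of cpl-1 without the same library (0.0856) or bcat-1 day 2 replicate 1 (0.0503). Over all 22 alternatives asp-2 lost its call in 3 and cpl-1 in 4.

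Of the 8 genes for ceramide synthesis 1 rose and 1 fell with age on bcat-1 RNAi, where 2.01% of all genes rose and 2.06% fell. ttm-5, named as a sphingolipid desaturase homolog, went from 8.48 ± 0.22 to 12.96 ± 0.72 CPM (log2 0.61, edgeR adjusted p = 0.0349). sptl-1, a subunit of serine palmitoyltransferase, went from 149 ± 3.00 to 118.7 ± 5.27 CPM (log2 -0.33, adjusted p = 0.0378). The call of ttm-5 was lost without any 1 of the 3 bcat-1 day 1 libraries, bcat-1 day 2 replicate 1 or 2, or L4440 day 1 replicate 1 or 2 (adjusted p 0.0569 to 0.151). That of sptl-1 was lost without any 1 of the 3 bcat-1 day 1 libraries, bcat-1 day 2 replicate 1 or 3, L4440 day 1 replicate 1 or 2, or L4440 day 2 replicate 3 (adjusted p 0.0565 to 0.156). Over all 22 alternatives ttm-5 lost its call in 10 and sptl-1 in 12. The lists for complex sphingolipids, sphingosine phosphate and branched precursors had 0 genes past the test in either age comparison.

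The genes whose pattern over the 12 libraries lay closest to that of asah-1 were fpn-1.2, ZK856.5, C51E3.10, F17C11.11 and F46C3.2. Likeness was the root mean square difference of centred log2 values among 10260 genes with at least 2 CPM, and it ran from 0.19 for fpn-1.2 to 0.23 for F46C3.2, where the median gene had 0.53. Their log2 values between foods at day 2 ran from 0.82 for F46C3.2 to 1.09 for fpn-1.2, and at day 1 from -0.10 for F17C11.11 to 0.45 for fpn-1.2. For gba-4 the closest were Y105C5B.15 (0.12), fut-6 (0.14), the trehalase gene tre-3 (0.15), F52E1.14 (0.15) and F21D5.3 (0.16), where the median gene had 0.37. On the log2 scale asah-1 itself had an SD of 0.49 over the libraries, and gba-4 of 0.32. Likeness used the same 12 libraries, so like values between foods follow from the choice of these genes. The patterns also share the depth and composition of each library, and no p is given.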

How the data were processed

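Polyadenylated RNA of 12 whole-worm libraries was analysed from a table of read counts per gene deposited by the authors. Per the submitters' processing notes, bcl2fastq 1.8.4, STAR 2.4.1d and featureCounts 1.4.6-p4 and the build WBcel235 were used, and the roles of these tools, the strand setting and the treatment of multiply mapped reads are not given in the sources used here. A second deposited table of RPKM was not used here. Gene symbols, positions and exon lengths came from Ensembl annotation 115.

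Tests used edgeR 4.0.16 (R 4.3.3) on these counts: filterByExpr by group, TMM factors, 1 quasi-likelihood model with 4 group means, 6 contrasts, and Benjamini-Hochberg adjustment over 14567 genes at a threshold of 0.05. CPM values use TMM-scaled library sizes, apart from the filter's level, which uses unscaled library sizes. Intervals are at 95%, and those of shares are Wilson intervals. Alternatives were other scaling factors, DESeq2 1.42.0, limma-voom (limma 3.58.1), no filter, a filter of 1 CPM and 50 counts in 3 libraries, no rRNA genes, only the compared groups, each library left out in turn, the longest transcript in place of merged exons for levels per kilobase, and, added after the data were seen, leaving out both libraries of over 5% rRNA. Replicate numbers name libraries in accession order and pair nothing.

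The members, the pathway lists and the marker lists were chosen with earlier results of these data known. Named genes were all 9 members, the listed pathway genes past a test or with the smallest adjusted p of their list at day 2, the 5 genes most like asah-1 and the 5 most like gba-4 (pseudocount 0.5), genes overlapping a member, and bcat-1. Promoter motifs, shared exon sequence and protein identity were not analysed here, and no sequence is shown.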

Additional observations from a re-analysis of the deposited data

How the results depend on the processing

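No paired analysis was possible because neither the labels nor the columns give replicate numbers. Over the alternatives, 1047 of 1170 log2 values of members kept their direction and side of the threshold, 66 lost and 8 gained a call, and 49 changed sign; no called value changed sign. The count of members called at day 1 was 1 with DESeq2. At day 2 it was 2 with DESeq2 or upper-quartile factors, 0 with library size only or only the compared groups, and 0 to 1 with a library left out. For the average it was 0 with library size only and 1 to 2 with a library left out. For age on L4440 it was 1 with library size only, limma-voom or without both high-rRNA libraries, and 0 to 3 with a library left out. For age on bcat-1 RNAi it was 1 with library size only, 2 with only the compared groups and 1 to 4 with a library left out. Library size only moved the median of all genes at day 2 from -0.02 to -0.14, and the cause of this shift was not tested. This setting gave 15.4 CPM per kilobase for asah-1 on bcat-1 RNAi at day 1. It gave 2.51 for asm-1 on bcat-1 RNAi at day 2 and 25.02 for gba-4 on L4440 at day 2. The longest transcript gave 4.66 for gba-3 on bcat-1 RNAi at day 1. Values of uncalled members that changed sign follow, on the log2 scale, with ranges for a library left out; for each the cause was not tested. Between foods at day 1, gba-3 ran from -0.014 to 0.10 and asm-1 from -0.26 to 0.0068. At day 2 asm-1 was 0.016 with only the compared groups, 0.0056 with the stricter filter and 0.031 with upper-quartile factors (range -0.084 to 0.042). At day 2 asm-2 was 0.0057 with limma-voom, 0.0044 with only the compared groups, 9.88e-05 with the stricter filter, 0.022 with upper-quartile factors and 0.12 without both high-rRNA libraries (range -0.090 to 0.057). In the average gba-1 was -0.0091 with library size only (range -0.0059 to 0.11) and asm-2 0.0034 without both high-rRNA libraries. In the difference between ages gba-4 was -0.0034 with DESeq2, -0.092 with library size only, -0.012 with no filter and -0.0062 with RLE factors (range -0.051 to 0.12). There asm-1 was -0.021 with library size only and -0.0058 without both high-rRNA libraries (range -0.014 to 0.23), and asm-3 0.11 without both (range -0.36 to 0.37). With age on L4440 asah-1 was -0.11 without both high-rRNA libraries (range -0.11 to 0.23) and asah-2 ran from -0.14 to 0.023. With age on bcat-1 RNAi gba-3 was 0.022 with upper-quartile factors (range -0.13 to 0.0070). Over all genes, calls at day 2 numbered 61, against 193 with DESeq2, 19 with library size only and 15 without bcat-1 day 2 replicate 2. With few reads, asm-3 and gba-2 (5 to 78 counts a library) had the widest intervals.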
